A study of Homo sapiens with 8 samples.

Results

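The genes described here are 32 direct targets of the transcription factor p53, taken as a fixed list of gene symbols. A probe set represented 29 of them, out of 17687 genes with a probe set in the series, while BTG2, BBC3 and FDXR had no probe set in the annotation table and were not analysed here. RNA was measured in 2 human T cell lines. MT-2 is labelled as infected with HTLV-1, the retrovirus that causes adult T cell leukaemia, and MT-1 as that leukaemia itself. MT-1 cells were left untreated (labelled control, with vehicle not mentioned in the labels) or received 500 nM OR21, a DNA demethylating agent, 2500 nM EPZ-6438, which inhibits EZH2, the methyltransferase for lysine 27 of histone H3, or both. MT-2 cells were left untreated or received 100 nM OR21, 500 nM EPZ-6438, or both. Exposure lasted 96 h, with additions at seeding and after 48 h, and all cells grew in the same serum-containing medium. Each of the 8 groups is 1 array of 1 cell line, so that no group has a replicate, and line and dose cannot be told apart because MT-1 received the higher dose of each agent.

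All levels are RMA values on a log2 scale, on which a difference of 1 is a 2-fold change. A level was called above background where it exceeded the value that 95% of the 612 negative-control probe sets of its array did not reach, which lay between 7.19 and 7.80. By this measure 17 of the 29 genes were above background on all 8 arrays, and 4 (PLK3, TP53INP1, SPATA18 and GDF15) on none. Of 10 T cell markers, CD5 and IL2RA were above background on all 8 arrays, CD4 in MT-2 alone and CD28 in MT-1 alone, while CD2, CD3D, CD3E, CD3G and LCK were above it on none. CD7 was above it on 4 arrays of MT-1 and 1 of MT-2. Of 22 measured markers of NK, B, myeloid and erythroid cells, epithelium, endothelium and fibroblasts, 13 were above background on none. The NK marker NKG7 was above it in MT-2 alone, at 10.85 to 11.41, and the NK markers NCAM1 and KLRD1 on no array. KRT8 was above background on all 8 arrays, COL1A2 on 6, and the B cell markers CD79A on 5 and CD79B on 3. HBA1 was above it on 3 arrays, and MPO, EPCAM and KRT18 on 1 each. In RNA of whole cultures, fewer cells of a type and less RNA per cell cannot be told apart.

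p53 is a tetrameric transcription factor that is stabilised after DNA damage and other stresses, and that binds pairs of 10-base half-sites near the genes it activates. Its targets form a branched programme: MDM2 and PPM1D shut p53 down again, SFN and CDKN1A halt the cell cycle, XPC and DDB2 serve DNA repair, PMAIP1 and FAS serve apoptosis, and TIGAR and SESN1 adjust metabolism. In HTLV-1 biology the pathway is known because the viral protein Tax impairs p53 function.

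OR21 is a DNA demethylating agent, and cytosines of CpG dinucleotides can be methylated. The upstream sequences of SFN and PLK2 are shown for their CpG, because these genes were the only members that passed the test across both lines. They were taken from RefSeq promoter windows on GRCh38.p14, in which 24 of the 32 genes matched (36 windows among 35116), and are written from 5′ to 3′ on the gene's strand with each CpG in capitals. The 250 bases before the start of SFN lie on chr1:26862899-26863148 (plus strand) and those of PLK2 on chr5:58460087-58460336 (minus strand).
SFN: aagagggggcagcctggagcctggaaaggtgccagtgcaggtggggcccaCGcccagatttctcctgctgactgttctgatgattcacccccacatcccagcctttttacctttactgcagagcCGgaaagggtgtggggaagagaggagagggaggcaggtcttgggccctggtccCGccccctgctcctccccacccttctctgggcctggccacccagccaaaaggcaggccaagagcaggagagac
PLK2: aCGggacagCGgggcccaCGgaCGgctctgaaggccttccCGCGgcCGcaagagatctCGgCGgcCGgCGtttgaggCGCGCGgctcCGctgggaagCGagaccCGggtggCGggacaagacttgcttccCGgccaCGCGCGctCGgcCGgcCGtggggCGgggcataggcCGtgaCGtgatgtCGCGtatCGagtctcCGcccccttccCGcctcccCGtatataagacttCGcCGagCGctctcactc
The SFN stretch holds 3 CpG and the PLK2 stretch 37. In the full windows of 300 bases, SFN has 7 CpG, and 39.3% of all windows have as few or fewer. PLK2 has 40, and 7.61% of all windows have as many or more. The median was 22 in the 36 windows of the target genes and 14 in all windows. DNA methylation was not measured in these data.

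The same windows were searched for the p53 half-site, whose motif reads the same on both strands. It occurred in 7 of the 36 windows of target genes, or 19.4%, and in 6.63% of all windows. The matches of the measured genes are shown with their 4-base core in capitals, because they are where a reader would look for p53 binding near the start.
PLK2: agaCTTGctt
RPS27L: agaCAAGccc
SESN1: ggaCAAGtct
FAS: ggaCAAGccc
AEN: gggCTTGccc
DDB2: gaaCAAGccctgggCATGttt
Only the DDB2 window held a pair, with at most 13 bases allowed between half-sites, on chr11:47214979-47214999 (plus strand). Such a pair occurred in 10 windows of all, or 0.0285%. No half-site was found in the SFN window, which says only that these letters are not within it.

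With OR21, a small group of p53 targets was higher in both lines, among them SFN, PLK2, MDM2, RRM2B and RPS27L, while most of the 27 genes kept for counting stayed within 1 log2 unit of untreated. In MT-1, 5 of the 27 were higher by 1 log2 unit or more (SFN, MDM2, TIGAR, PLK2 and PMAIP1) and 0 lower, where 5.35% of all 12942 probe sets kept were higher and 3.75% lower by that much. In MT-2, 5 were higher (SFN, PLK2, TP53INP1, RRM2B and RPS27L) and 0 lower, against 2.36% higher and 1.69% lower of all probe sets. TP53INP1 was not above background there, and 4 of these 5 genes were. It was kept for counting only through the MT-2 arrays with OR21 (6.65) and with both agents (7.39), so its place in this count follows from the filter. The median change of the 27 genes was 0.09 for MT-1 and 0.43 for MT-2, and that of all probe sets was -0.06 in both lines. The MT-1 median had no stable sign, at -0.0717 with arrays centred on their median and -0.0508 with levels floored at background, and the MT-2 count of 5 was 3 under either setting. These counts compare single arrays and have no test.

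With EPZ-6438 alone, hardly any target moved by that much. SFN in MT-1 was the only gene of the 27 higher by 1 log2 unit or more, against 1.03% of all probe sets higher and 0.294% lower. In MT-2 no gene was, against 0.896% higher and 0.355% lower. The 27 genes had a median change of 0.02 (MT-1) and 0.11 (MT-2).

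With both agents, 9 of the 27 genes were higher in MT-1 (SFN, MDM2, PMAIP1, PLK2, CMBL, RRM2B, ZMAT3, GADD45A and RPS27L) and 2 lower (TRIAP1 and FBXO22). Of all probe sets, 11.2% were higher and 9.64% lower there. In MT-2, 7 were higher (SFN, PLK2, TP53INP1, SESN1, ZMAT3, EDA2R and MDM2) and 0 lower, against 5.05% higher and 1.95% lower. TP53INP1 was again not above background and was kept only through the MT-2 arrays that had OR21, and 6 of these 7 genes were above background. GDF15, which fell short of the filter and was not above background, would make 8 of the 29 measured. Their median change was 0.67 (MT-1) and 0.51 (MT-2), and those of all probe sets -0.05 and -0.02. Markers of other kinds also stood apart on the MT-1 array with both agents: HBA1, a globin gene, was at least 2.55 above untreated and CD28, a T cell receptor for costimulation, had a change of -4.08. The other measured erythroid markers did not share the HBA1 rise. HBB and ALAS2 were above background on no array, with changes of -0.46 and -0.20 on that MT-1 array. The summed signal of the 3 measured erythroid markers was 7.44, 8.29, 8.13 and 10.06 (log2) in MT-1 and 7.54 to 7.84 in MT-2, and that of the 10 T cell markers 15.29 to 16.20 and 16.67 to 17.04. Their part in the changes was not tested.

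**Figure D1:**
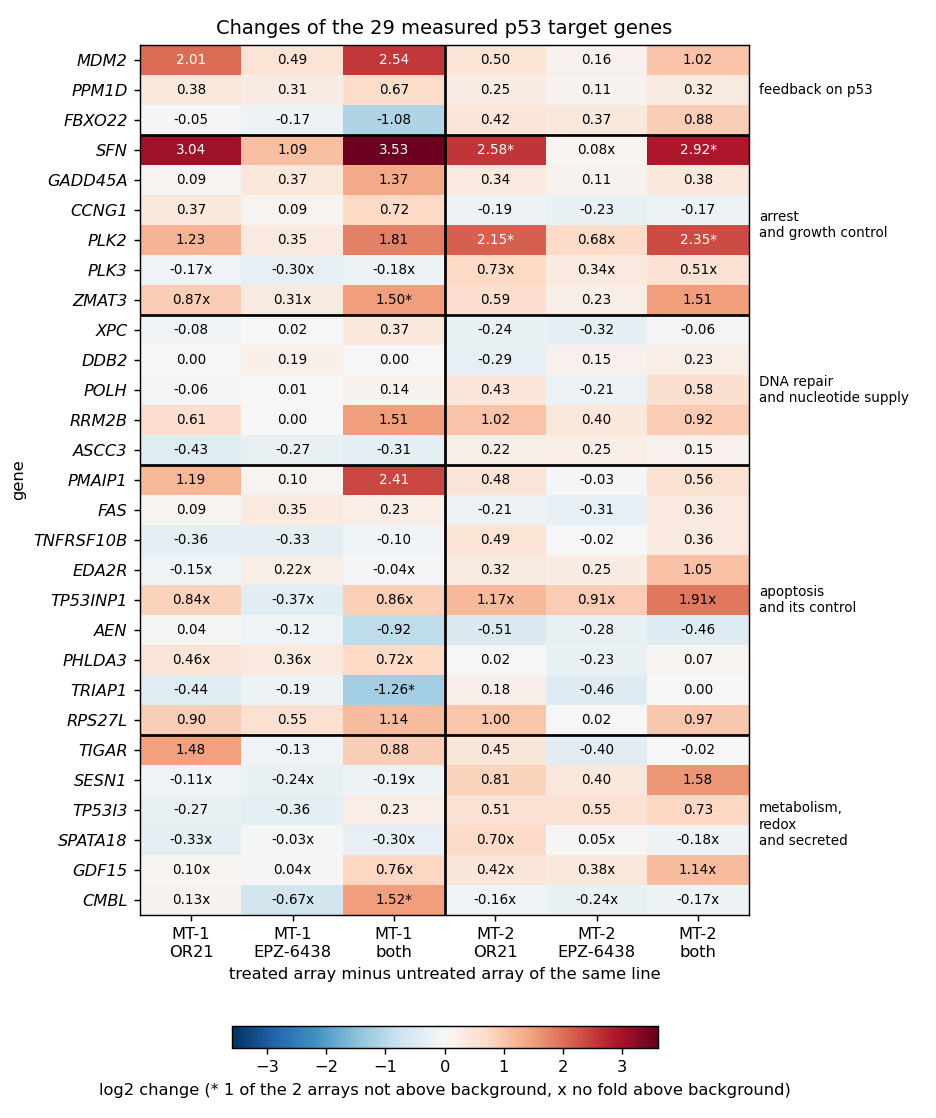
Log2 change of the 29 measured p53 target genes (rows, grouped by role) in 6 comparisons of a treated with the untreated array of the same line (columns; both = OR21 and EPZ-6438), 1 array each. An asterisk marks a change with 1 of its 2 arrays not above background, an x a change with no fold above background. SFN has the darkest cells, up to 3.53 in MT-1 with both agents, and the EPZ-6438 columns are pale.

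Whether a change exceeded the scatter between arrays was tested with limma over all 12942 probe sets, with Benjamini-Hochberg adjustment and an adjusted p under 0.05 as the threshold. Since no group is replicated, each fit takes its spread from how far arrays depart from an additive pattern. The first fit compared the 4 arrays that had OR21 with the 4 that did not, over both lines and with or without EPZ-6438. SFN (14-3-3 sigma, which holds cells at the G2 checkpoint) rose by 2.73 (SE 0.18, adjusted p = 0.00989). PLK2, a polo-like kinase, rose by 1.63 (SE 0.17, adjusted p = 0.0374). They were 2 of the 27 genes, while 0.116% of all probe sets rose (15 of them) and 0.0464% fell (6 of them). With all arrays centred on their median these counts were 12 and 8, and after cyclic loess 14 and 3, and both genes passed under each. SFN was lost without the MT-1 OR21, the MT-2 OR21 or the MT-2 EPZ-6438 array (highest adjusted p = 0.112), and PLK2 was lost whichever array was left out (adjusted p between 0.0639 and 0.221).

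Below these 2 genes lay a run of targets that missed the threshold in that fit. ZMAT3 had an estimate of 0.98 (SE 0.15, adjusted p = 0.0707), RPS27L of 0.86 (SE 0.15, adjusted p = 0.0756), MDM2 of 1.36 (SE 0.28, adjusted p = 0.089) and RRM2B of 0.91 (SE 0.20, adjusted p = 0.0946). TIGAR had 0.83 (adjusted p = 0.111) and PMAIP1 1.14 (adjusted p = 0.127). At an unadjusted p under 0.05 stood 10 of the 27 genes and 2791 of all probe sets. For EPZ-6438 in the same fit, 0 probe sets passed (0%), and at an unadjusted p under 0.05 stood 1180 probe sets and 3 of the 27 genes: ZMAT3, SFN and PLK2, with estimates of 0.52, 0.50 and 0.45.

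An additive fit of line and treatment, in which the lines act as each other's replicates and each treatment is set against the untreated arrays, called 0 probe sets for OR21, EPZ-6438 or both agents (0% each). At an unadjusted p under 0.05 it had 1079 probe sets and 8 of the 27 genes for OR21, 285 and 0 for EPZ-6438, and 2489 and 11 for both agents. For both agents the lowest adjusted p among the targets was 0.114, shared by SFN (3.23, SE 0.27), PLK2 (2.08, SE 0.26) and ZMAT3 (1.51, SE 0.19). Without the MT-2 array of both agents, which leaves MT-1 alone to give that value, 7 of the targets passed: SFN, PLK2, ZMAT3, GADD45A, CMBL, RRM2B and PMAIP1. Over all probe sets, 503 were then called higher and 237 lower.

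A further fit gave each line its own effect of each agent, so that a line's 2 arrays with OR21 were set against its 2 without. In MT-1, 9 of the 27 genes rose and 0 fell: SFN, MDM2, PMAIP1, PLK2, TIGAR, RRM2B, TP53INP1, ZMAT3 and RPS27L. TP53INP1 was above background on no array. A stricter filter left it out, and 8 targets then rose, with 897 higher and 1082 lower of 10283 probe sets. This fit called many probe sets in that line, 8.07% of all higher and 8.38% lower. The split of those calls turned on the scaling: 49.1% of them were higher as deposited, 29.3% with arrays centred on their median (7 targets higher, and TRIAP1 lower) and 61.7% after cyclic loess (9 targets higher). In MT-2, SFN and PLK2 rose and none of the 27 fell, against 0.742% of all higher and 0.147% lower. For EPZ-6438 no target passed in either line, against 0.0232% of all probe sets for MT-1 and 0% for MT-2. At an unadjusted p under 0.05 stood 5 of the 27 for MT-1 (18.5%, against 14.5% of all probe sets) and 4 for MT-2 (14.8% against 11.2%). The difference between lines in the EPZ-6438 change was called for 0% of probe sets, with 1193 probe sets and 3 of the 27 genes at an unadjusted p under 0.05.

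**Figure D2:**
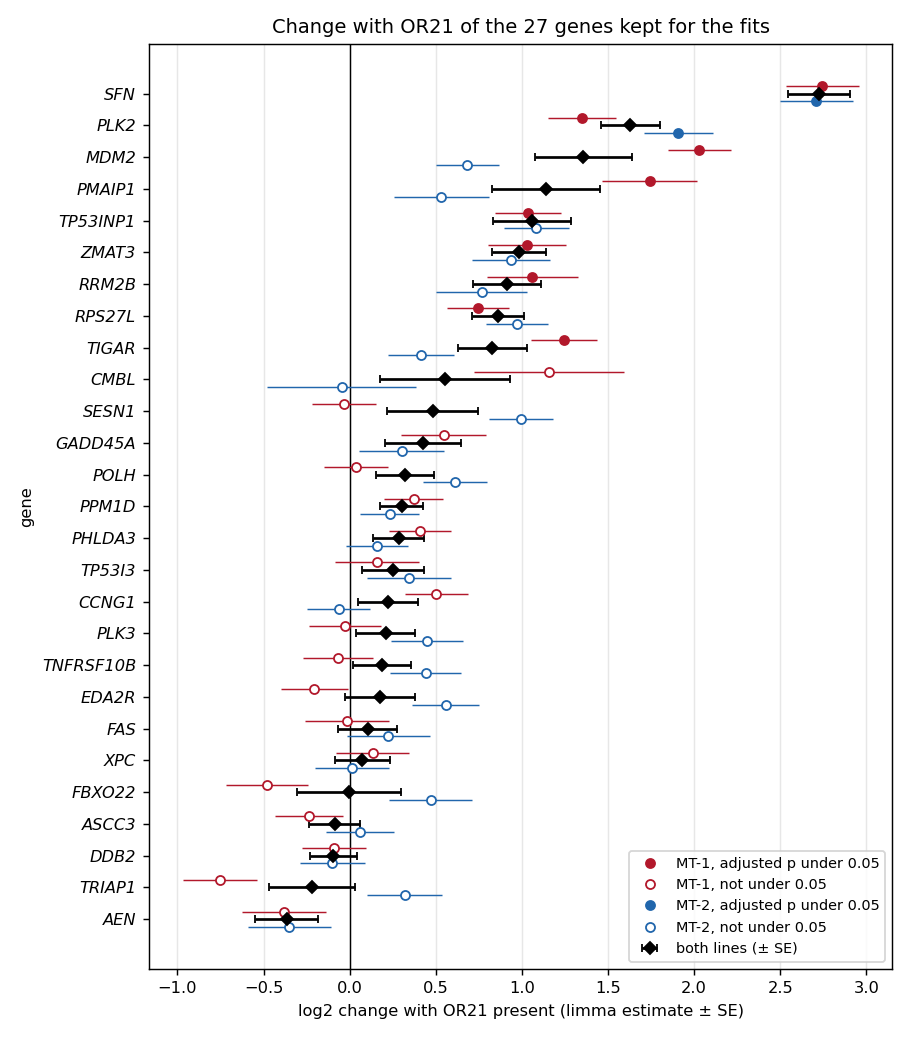
Log2 change with OR21 of the 27 p53 target genes kept for the fits (limma estimate, bars are the SE). Black diamonds are the estimate over both lines, red and blue circles those of MT-1 and MT-2, filled where the adjusted p was under 0.05. SFN stands at 2.74 (MT-1) and 2.71 (MT-2), whereas MDM2 stands at 2.03 and 0.68; TP53INP1 was not above background on any array.

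Among the feedback genes, MDM2, the ubiquitin ligase that degrades p53, showed the clearest difference between the lines. Its level in MT-1 was 11.81 untreated, 13.82 with OR21, 12.29 with EPZ-6438 and 14.34 with both. In MT-2 it was 12.06, 12.56, 12.22 and 13.08. The 2 arrays with OR21 lay above the 2 without in each line, with a wider gap for MT-1. In the fit by line MDM2 rose by 2.03 in MT-1 (SE 0.18, adjusted p = 0.00126), whereas for MT-2 the estimate was 0.68 (SE 0.18, adjusted p = 0.17). The change was smaller in MT-2 by 1.35 (MT-2 minus MT-1 -1.35, SE 0.26, adjusted p = 0.0414), the only one of the 27 genes with such a difference, where 1.41% of all probe sets had a difference above 0 and 2.68% one below 0. As the doses differ, this is a difference between treated lines and not between lines at one dose.

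PPM1D, the phosphatase WIP1 that reverses p53 phosphorylation, stayed within 0.67 of its untreated level on all treated arrays, from 9.98 to 10.65 in MT-1 and from 10.56 to 10.89 in MT-2. FBXO22, the F-box part of a ubiquitin ligase, had levels of 10.49, 10.44, 10.32 and 9.41 in MT-1, in the order untreated, OR21, EPZ-6438 and both. In MT-2 they were 9.86, 10.28, 10.22 and 10.74. The array with both agents was thus the lowest of the MT-1 arrays and the highest of the MT-2 arrays.

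Of the growth-control genes, SFN had the largest changes of any target in MT-1 with OR21 and with both agents. Its levels in MT-1 were 8.13 untreated, 11.17 with OR21, 9.21 with EPZ-6438 and 11.66 with both. In MT-2 they were 6.79, 9.37, 6.87 and 9.72, of which the untreated and the EPZ-6438 array were not above background. The changes in MT-2 are therefore bounds, at least 1.57 with OR21 and at least 1.91 with both. In the fit by line the estimates were 2.74 for MT-1 (SE 0.21, adjusted p = 0.00067) and 2.71 for MT-2 (SE 0.21, adjusted p = 0.00911). Their difference was -0.03 (SE 0.30, adjusted p = 0.963), with the MT-2 value depending on levels below background.

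SFN is also an epithelial gene, and some of the 7 listed markers of epithelium, endothelium and fibroblasts were higher on the same MT-1 arrays, KRT8 above all. The summed signal of that list was 9.13 (log2) untreated, 10.59 with OR21, 9.31 with EPZ-6438 and 13.15 with both, and 1, 2, 2 and 4 of its 7 genes were above background. KRT8, a keratin, was 5.14 higher with both agents, and EPCAM and KRT18 were above background on that array of the 8 alone. In MT-2, where SFN was also higher, the summed signal stayed between 9.55 and 9.81, with 1 or 2 genes above background, and PECAM1, VWF and COL1A1 were above background on no array of either line. The part of this signal in the SFN change of MT-1 was not tested.

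PLK2 was high in MT-1 and not above background in untreated MT-2. Its levels in MT-1 were 10.27 untreated, 11.51 with OR21, 10.62 with EPZ-6438 and 12.09 with both. In MT-2 they were 6.09, 8.24, 6.77 and 8.44, with both arrays that had OR21 above background and the others not. It rose by 1.35 in MT-1 (SE 0.20, adjusted p = 0.00836) and by 1.91 in MT-2 (SE 0.20, adjusted p = 0.0191), and the bound in MT-2 was at least 0.44 with OR21. With every level below background raised to it, PLK2 missed the threshold over both lines (adjusted p = 0.0831).

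ZMAT3, a zinc finger protein that binds RNA, stood near background in MT-1 at 6.54, 7.41, 6.85 and 8.04, in the order untreated, OR21, EPZ-6438 and both. In MT-2 it was clearly measured at 9.10, 9.69, 9.32 and 10.60. The array with both agents was the highest in each line, at least 0.58 above untreated for MT-1 and 1.51 for MT-2. Its call in MT-1 (1.03, SE 0.22, adjusted p = 0.0268) was lost with levels floored at background (adjusted p = 0.268). GADD45A, a stress sensor that acts in arrest and repair, was 9.81, 9.90, 10.18 and 11.18 in MT-1 and lay between 11.50 and 11.88 in MT-2, so that the array with both agents in MT-1 stood apart.

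The remaining measured growth-control genes, CCNG1 and PLK3, stayed within 1 log2 unit of untreated. CCNG1, cyclin G1, was higher on all 3 treated MT-1 arrays (0.37, 0.09 and 0.72 with OR21, EPZ-6438 and both) and lower on all 3 treated MT-2 arrays (-0.19, -0.23 and -0.17). PLK3, a kinase related to PLK2, was not above background on any array.

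**Figure D3:**
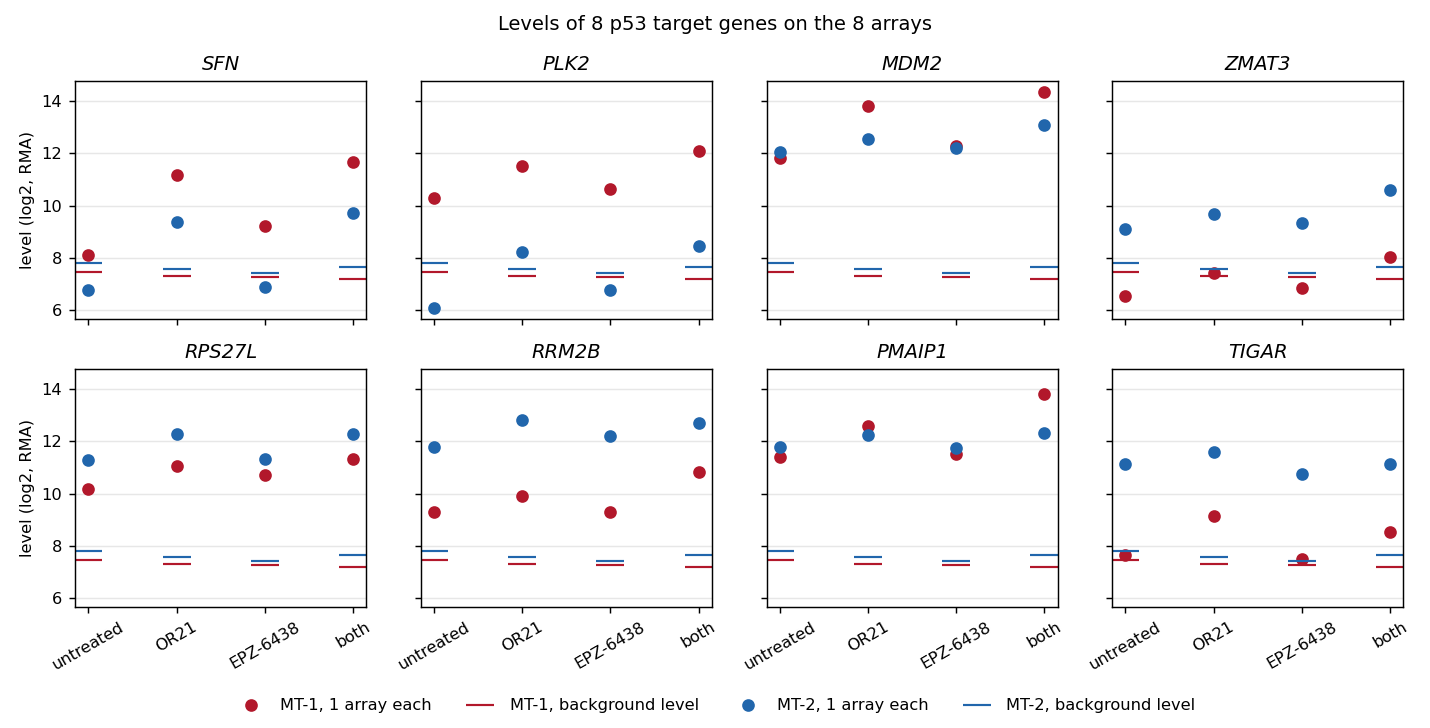
Level (log2 RMA value) of 8 p53 target genes on the 8 arrays, 1 array per point, MT-1 in red and MT-2 in blue; dashes are the background level of each array. SFN in MT-2 goes from 6.79 untreated, below the dash, to 9.37 with OR21, and MDM2 in MT-1 from 11.81 to 13.82.

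The DNA repair genes were mostly flat, and RRM2B, a subunit of ribonucleotide reductase that supplies nucleotides for repair, was the exception. Its levels in MT-1 were 9.29 untreated, 9.90 with OR21, 9.29 with EPZ-6438 and 10.80 with both. In MT-2 they were 11.78, 12.80, 12.18 and 12.69. Both arrays with OR21 lay above both without in each line. It rose by 1.06 in MT-1 (SE 0.26, adjusted p = 0.0395), and the MT-2 estimate of 0.77 did not pass (SE 0.26, adjusted p = 0.237). The MT-1 call was lost when that line was fitted alone and with arrays centred on their median.

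XPC and DDB2, which recognise damage for nucleotide excision repair, and ASCC3, a helicase subunit, stayed within 0.43 of the untreated level on all treated arrays. DDB2, the gene with the paired half-sites shown above, had changes of 0.00, 0.19 and 0.00 in MT-1 and of -0.29, 0.15 and 0.23 in MT-2 with OR21, EPZ-6438 and both. ASCC3 was lower on the 3 treated MT-1 arrays (-0.43, -0.27 and -0.31) and higher on the 3 treated MT-2 arrays (0.22, 0.25 and 0.15). POLH, the translesion polymerase eta, was within 0.14 of untreated in MT-1, and in MT-2 was 0.43 higher with OR21 and 0.58 higher with both.

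Of the apoptosis genes, PMAIP1, the BH3-only protein NOXA, had the largest measured change. Its levels in MT-1 were 11.39 untreated, 12.58 with OR21, 11.50 with EPZ-6438 and 13.80 with both. In MT-2 they were 11.76, 12.24, 11.72 and 12.31. The arrays with OR21 were the higher ones in each line, and the addition of EPZ-6438 to OR21 went with a further 1.22 (MT-1) and 0.08 (MT-2). It rose by 1.74 in MT-1 (SE 0.28, adjusted p = 0.0102). The difference between lines was -1.21 and did not pass (SE 0.39, adjusted p = 0.137).

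RPS27L, a ribosomal protein-like p53 target, was 10.17, 11.07, 10.72 and 11.31 in MT-1 and 11.29, 12.29, 11.31 and 12.26 in MT-2, in the order untreated, OR21, EPZ-6438 and both. In MT-2 the 2 arrays with OR21 agreed within 0.03 and stood about 1 log2 unit above the 2 without. It rose by 0.75 in MT-1 (SE 0.18, adjusted p = 0.0366), and the MT-2 estimate of 0.97 missed the threshold (SE 0.18, adjusted p = 0.0775). With that line fitted alone, or with arrays centred on their median, the MT-1 call was lost.

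The death receptors did not follow PMAIP1 in MT-1. FAS lay between 10.88 and 11.24 in MT-1 and between 9.59 and 10.25 in MT-2. TNFRSF10B, the TRAIL receptor DR5, was lower on all 3 treated MT-1 arrays (-0.36, -0.33 and -0.10). In MT-2 it was 0.49 higher with OR21 and 0.36 higher with both, the arrays on which PMAIP1 was also higher. EDA2R, the receptor of ectodysplasin A2, was not above background in MT-1. In MT-2 it was 8.16, 8.48, 8.42 and 9.21, highest with both agents.

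AEN and TRIAP1 were the apoptosis genes furthest below untreated in MT-1, with both agents. AEN, an apoptosis-linked nuclease, was 12.91, 12.94, 12.79 and 11.99 in MT-1, so that the array with both agents lay 0.92 below untreated. In MT-2 it was 0.51, 0.28 and 0.46 below untreated on the 3 treated arrays (levels 13.54, 13.03, 13.26 and 13.07). TRIAP1, an inhibitor of apoptosis, was 7.99, 7.55, 7.79 and 6.72 in MT-1, the last not above background, a change of -0.80 or lower. In MT-2 it lay between 7.84 and 8.47. PHLDA3, which restrains AKT, was not above background in MT-1 and lay between 8.08 and 8.38 in MT-2. TP53INP1, a promoter of p53-dependent cell death, was not above background on any array, and its call in MT-1 above rests on such values.

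TIGAR, an enzyme that lowers glycolytic flux, showed the widest gap between the untreated lines among the metabolic genes. Its levels were 7.64, 9.12, 7.51 and 8.52 in MT-1 and 11.14, 11.59, 10.74 and 11.12 in MT-2. In MT-1 the OR21 array was the highest and the array with both agents came next, and in MT-2 the same array was the highest by a smaller margin. TIGAR rose by 1.24 in MT-1 (SE 0.19, adjusted p = 0.00989), and the difference between lines did not pass (-0.83, SE 0.27, adjusted p = 0.144).

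SESN1, an inhibitor of mTORC1 signalling, was not above background in MT-1. In MT-2 it was 8.18 untreated, 8.99 with OR21, 8.58 with EPZ-6438 and 9.76 with both, and the estimate for OR21 of 0.99 missed the threshold (SE 0.19, adjusted p = 0.0818). TP53I3, a quinone oxidoreductase linked to oxidative stress, was higher on all 3 treated MT-2 arrays (0.51, 0.55 and 0.73) and within 0.36 of untreated in MT-1. CMBL, a hydrolase, was above background on the MT-1 array with both agents alone, at 8.32, which is at least 0.86 above untreated. SPATA18, which acts in mitochondrial quality control, and GDF15, a secreted stress cytokine, were not above background on any array.

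Each line holds 2 pairs of arrays that differ by OR21 and share no array: OR21 against untreated, and both agents against EPZ-6438. In MT-1, of 19 target genes above background on all 4 arrays, 10 were higher in both pairs, 2 lower in both and 7 opposite. Of 8483 probe sets above background on these arrays, 27.1% were higher in both, 47.7% lower in both and 25.1% opposite. MDM2, SFN, PLK2, RRM2B, PMAIP1, RPS27L and TIGAR were higher by 0.5 or more in both pairs, as were 5.28% of those probe sets. In MT-2, of 22 such genes, 16 were higher in both pairs, 1 lower in both and 5 opposite, and MDM2, ZMAT3, RRM2B, RPS27L and SESN1 were higher by 0.5 or more in both. Of 7757 such probe sets, 26.7% were higher in both pairs, 39.6% lower in both and 33.7% opposite, and 2.82% were higher by 0.5 or more in both. MDM2, RRM2B and RPS27L thus met that mark in both lines, and SFN and PLK2 were not above background on all 4 MT-2 arrays. Pearson's r between the pairs was 0.80 over the 19 genes and 0.63 over the 22, given as a description, since the genes of a pair share its arrays. The same 2 pairs for EPZ-6438 had 0 target genes higher by 0.5 or more in both pairs in either line, against 2.06% of probe sets for MT-1 and 3% for MT-2.

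**Figure D4:**
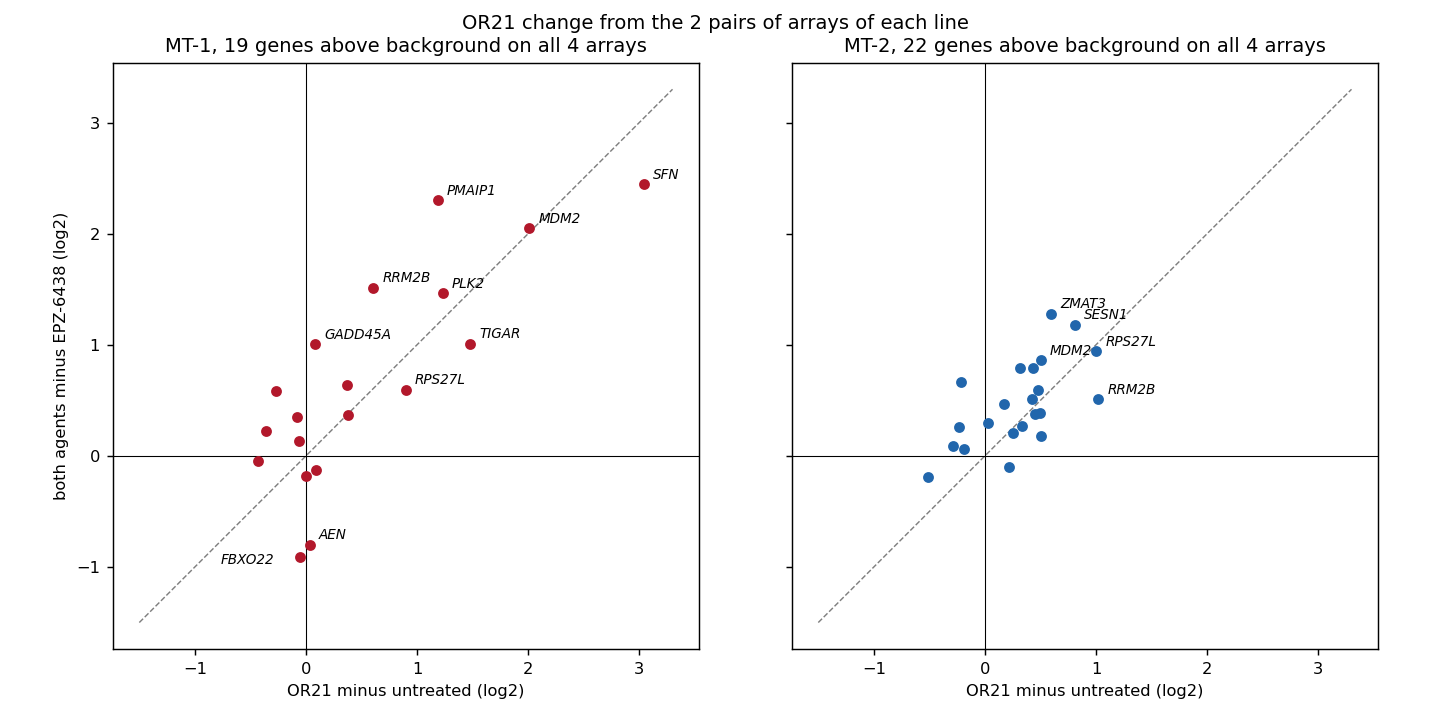
Log2 change with OR21 from 2 pairs of arrays that share no array, OR21 minus untreated (x axis) and both agents minus EPZ-6438 (y axis), in MT-1 (19 genes) and MT-2 (22 genes); each point is 1 p53 target gene above background on all 4 arrays of the line, and the dashed line marks equal change. MDM2 in MT-1 lies near that line at 2.01 and 2.05, and FBXO22 and AEN lie near 0 on the x axis and at -0.91 and -0.80 on the y axis.

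The change with both agents was then compared with what the single agents add up to on the log2 scale. The excess over that sum had a median over the 27 genes of 0.19 (MT-1) and 0.22 (MT-2), and of 0.02 and 0.08 over all probe sets. In MT-1 it was highest for CMBL, at 2.05, a gene above background only on the array with both agents. It was 1.12 for PMAIP1, 0.92 for GADD45A and 0.91 for RRM2B, all with more than the sum. SFN in MT-1 had less than the sum, at -0.60. It was -0.86 for FBXO22 and -0.84 for AEN, which were lower with both agents than with either alone. In MT-2 FAS had the highest excess, 0.88, and MDM2 was near the sum in MT-1 at 0.04. These values rest on 4 arrays each and have no test.

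Between the untreated lines, 10 of the 29 genes were higher by 1 log2 unit or more in MT-2 and 3 in MT-1. Of the 12942 probe sets kept, 2032 were higher by that much in MT-2 and 3516 in MT-1, so such differences were common on the arrays. These counts include levels below background. Untreated MT-2 was higher than untreated MT-1 by 3.50 for TIGAR, 2.49 for RRM2B, 1.69 for GADD45A, 1.48 for DDB2, 1.45 for TNFRSF10B and 1.12 for RPS27L. ZMAT3, PHLDA3, SESN1 and EDA2R were above background in MT-2 alone, higher by at least 1.64, 0.85, 0.72 and 0.71. Untreated MT-1 was higher for PLK2 (a difference of -2.47 or lower) and SFN (-0.32 or lower), which were above background there alone, and for TP53I3 (-1.06). MDM2 differed by 0.25. The median difference was 0.55 over the 29 genes and -0.29 over all probe sets. With 1 untreated array per line, none of these differences has a test.

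Other genes of the pathway were taken as 3 further lists. Of 21 kept genes among 25 other p53 targets, 7 rose with OR21 in MT-1 and 1 fell by the fit by line, where 8.07% of all probe sets rose and 8.38% fell, and 1 rose in MT-2, against 0.742%. CDKN1A, the cyclin-dependent kinase inhibitor p21, is the best known of them. Its levels in MT-1 were 4.33 untreated, 6.99 with OR21, 4.70 with EPZ-6438 and 9.46 with both, of which the last alone was above background, at least 2.0 above untreated. In MT-2 it was 12.41, 12.96, 12.85 and 13.19, above background throughout. Its call in MT-1 (3.71, SE 0.44, adjusted p = 0.00382) rests on levels below background, and with OR21 alone no fold above background was measured.

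The other named targets moved mainly in MT-1. PRDM1, a transcription factor of terminal lymphocyte differentiation, was 10.83 untreated, 12.10 with OR21, 12.02 with EPZ-6438 and 13.28 with both in MT-1, and between 11.61 and 11.77 in MT-2. Its change was smaller in MT-2 by the test of the difference (-1.21, SE 0.24, adjusted p = 0.0458). FUCA1, a lysosomal fucosidase, rose with OR21 in MT-1 (1.85, SE 0.34, adjusted p = 0.0163), as did PERP, a junction protein (1.08, SE 0.19, adjusted p = 0.0147), and IER5, an immediate early gene (0.89, SE 0.20, adjusted p = 0.0284). CD82, a tetraspanin, was at least 2.19 above untreated with both agents in MT-1 and within 0.45 of it in MT-2. KITLG, the ligand of the receptor KIT, fell by 1.13 in MT-1 (SE 0.27, adjusted p = 0.0342). THBS1, a matrix glycoprotein, rose by 2.20 in MT-2 (SE 0.28, adjusted p = 0.0288) and had no fold above background in MT-1.

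Of 17 kept genes among 22 in the list of the p53 family, its regulators and partners, TP73 alone passed in any of the fits. TP73, a transcription factor, was 5.76, 7.54, 6.84 and 8.91 in MT-1 and 9.24, 8.51, 9.02 and 8.61 in MT-2, in the order untreated, OR21, EPZ-6438 and both. In MT-1 it went from below background to at least 1.45 above it with both agents, and in MT-2 it was lower on all 3 treated arrays. The change with OR21 in MT-2 minus that in MT-1 was -2.49 (SE 0.27, adjusted p = 0.00643), and part of it rests on MT-1 levels below background. MDM4, the relative of MDM2 that also inhibits p53, was within 0.56 of untreated on all treated arrays and passed in none of the fits.

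The list of genes that p53 represses through p21 and the DREAM complex, which holds cell cycle genes, had 19 kept genes of 20. None of them passed in any of the fits. In MT-1, 0 were higher or lower by 1 log2 unit or more with any treatment. In MT-2, 2 were lower with OR21 and 1 with both agents, against 1.69% and 1.95% of all probe sets. The list's median was -0.16 and -0.21 there (all probe sets -0.06 and -0.02), and on the MT-1 arrays 0.03 and 0.10 (all probe sets -0.06 and -0.05).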

How the data were processed

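Total RNA of 8 cultures, treated with DNase per the labels' protocols, was hybridised to one-colour Affymetrix arrays. The authors deposited values made with RMA, per the submitters' processing notes, which are read here as log2. The sources used here do not give the RMA version, the array build or any rescaling, and base 2 was taken from the use of RMA. Values ran from 2.14 to 18.91, above the top of a 16-bit scanner, so log2 differences hold on the scale as deposited. Of 24351 entries, 21448 were transcript probe sets, and the platform annotation named 17709 of them with 1 symbol and 3739 with none. No listed gene had several probe sets.

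Probe sets whose highest value reached the table median (6.57) were kept, 12942 in all. limma 3.58.1 (R 4.3.3, lmFit and eBayes) fitted 3 designs: line and treatment (3 residual degrees of freedom), line with both agents (4), and the agents within each line (2). Single arrays were also subtracted within a line. Scripts were tested on simulated arrays with 100 probe sets changed by 1 log2 unit with OR21 and 100 by 2. At 1, the fit by line called 1 of the 100 for MT-1 and 0 for MT-2, and at 2 it called 49 and 47. The fit of line with both agents called 55 at 1 and 90 at 2. A missed threshold therefore does not show that a gene was unchanged. Where only 1 of 2 arrays was above background, the difference against the background level is given as a bound. The number of arrays limits the precision, and p-values measure only departures from additivity between unreplicated arrays. The alternatives were no filter, a stricter filter, median centring, cyclic loess, flooring at background, a variance trend, each line alone, a change of 0.5 and leaving out each array.

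The members and lists were chosen with earlier results of these data known. All members are accounted for. Of the other lists, CDKN1A and MDM4 were named in any case, with up to 8 further genes by size that passed in a fit or changed by 1 log2 unit or more above background in the same direction with OR21 and with both agents. Promoter windows are RefSeq's on GRCh38.p14, matched by symbol.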

Additional observations from a re-analysis of the deposited data

Results flagged for a closer look

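The change with OR21 differed between the lines by limma's test of that difference for 4 of the genes described. MT-2 minus MT-1 was -2.49 for TP73, -3.27 for CDKN1A, -1.21 for PRDM1 and -1.35 for MDM2. CDKN1A was not above background on 3 of the 4 MT-1 arrays and TP73 on 2 of them, so that neither difference has a measured size. The lines received different doses, and dose and line cannot be told apart.

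FBXO22, CCNG1 and ASCC3 moved one way on all 3 treated arrays of one line and the opposite way on all 3 of the other. The change with both agents in MT-2 minus that in MT-1 was 1.96 for FBXO22, -0.89 for CCNG1 and 0.47 for ASCC3. These 3 differences were not tested.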

How the results depend on the processing

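No pairing by replicate was possible because each group holds 1 array and the labels carry no replicate numbers. Cell line is a term in every fit over both lines. The medians of the 27 genes moved as follows. For OR21 in MT-1 the median was -0.0717 with arrays centred on their median, 0.21 after cyclic loess and -0.0508 with levels floored at background. For both agents in MT-1 it was 0.44, 0.81 and 0.23 under the same settings. For OR21 in MT-2 it was 0.55 after cyclic loess. Floored, it was -0.12 for EPZ-6438 in MT-1, -0.0348 for EPZ-6438 in MT-2 and 0.36 for both agents in MT-2, where the stricter filter gave 0.38. Centring shifted the median of all probe sets by -0.16 for OR21 and -0.23 for both agents in MT-1, and loess shifted the latter by 0.13.

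With a change of 0.5 in place of 1, the numbers of genes higher were 9 (OR21), 2 (EPZ-6438) and 14 (both) in MT-1 and 10, 3 and 14 in MT-2. In the same order, 14.6%, 7.73%, 22.4%, 10.2%, 7.55% and 16.4% of all probe sets were higher. At 0.5, 1 gene was lower with EPZ-6438 in MT-1 and 1 with OR21 in MT-2. TRIAP1, FBXO22 and AEN were lower by that much with both agents in MT-1, and no gene was in the other comparisons. Of all probe sets, 17.9%, 7.23%, 25.7%, 14.5%, 6.49% and 15.1% were lower, in the order used above. At 1, the genes lower with both agents in MT-1 were 1 after loess and 1 floored, and the genes higher with OR21 in MT-2 were 3 centred and 3 floored. With a variance trend the fits passed 1 gene for both agents in the additive fit, 4 for OR21 over both lines, 4 for OR21 in MT-2 and 2 for the difference between lines. The calls higher and lower over all probe sets were then 9 and 1, 73 and 58, 263 and 186, and 504 and 630, in that order. Without the trend they were 0 and 0, 15 and 6, 96 and 19, and 183 and 347. Floored, they passed 1 for OR21 over both lines, 7 for OR21 in MT-2, 6 for the difference and 3 for EPZ-6438 in MT-1. Over all probe sets, flooring took the calls higher and lower from 15 and 6 to 4 and 7 for OR21 over both lines. For OR21 in MT-2 it took them from 96 and 19 to 306 and 334. They went from 183 and 347 to 746 and 654 for the difference, and from 3 and 0 to 401 and 225 for EPZ-6438 in MT-1. Flooring gives genes below background the same values as one another, which narrows the spread by construction. Leaving out each array passed between 0 and 1 genes for OR21 over both lines, and between 0 and 5 of all probe sets.

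Flooring turned the sign of 7 values, all of genes below, or on 1 array just above, the background of the arrays compared: TP53INP1 in MT-2 with OR21 (-0.24) and with both (-0.17), GDF15 in MT-2 with both (-0.17), TP73 in MT-1 with EPZ-6438 (-0.19), CDKN1A in MT-1 with OR21 (-0.16), THBS1 in MT-1 with both (-0.20), and TP53INP1 in the fit of MT-1 (-0.12). Signal near background limits SFN and PLK2 in MT-2 and ZMAT3 in MT-1.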
